A study of Mus musculus with 8 samples.

Results

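The genes described here are 9 of the 53465 in the deposited table, all tied to glucocorticoid signalling: the receptor genes Nr3c1 and Nr3c2, the steroid-converting enzyme genes Hsd11b1 and Hsd11b2, and the target genes Klf9, Sgk1, Zbtb16, Tsc22d3 and Fkbp5. They were taken by symbol, from a list chosen by their role and by their values in these same libraries, Arg1 ko against wild type, so their levels and differences are given as a description and support nothing by themselves. All 9 had a mean of at least 3 on the regularised log2 (rlog) scale, the filter that left 16380 genes for testing.

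The study compared the colon of 4 mice labelled Arg1 ko, which carry a conditional and cell-specific deletion of Arg1, with that of 4 Arg1-expressing littermates, here called wild type. The product of Arg1, arginase 1, hydrolyses arginine and so competes for it with nitric oxide synthesis. All 8 mice were on the B6 background, were between 7 and 12 weeks old and were matched for age and sex. All drank water with 2.5% dextran sulfate sodium, or DSS, which damages the lining of the colon, for a week, then plain water until day 10. No untreated mice are among the groups, so every value is from a colon recovering from injury. Neither the cell type and driver of the deletion nor the hour at which the mice were killed is given in the labels.

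Glucocorticoids, corticosterone in mice, enter cells and bind the glucocorticoid receptor, which chaperones hold ready in the cytoplasm. The loaded receptor moves to the nucleus and binds DNA as a pair, at inverted repeats of a short motif, and raises or lowers transcription nearby. In the colon the hormone also reaches the mineralocorticoid receptor, which drives sodium uptake, unless the surface epithelium first inactivates it. Injured intestine is known to make corticosterone of its own, which restrains inflammation.

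The response element itself could be read from RefSeq promoter windows (GRCm38.p6), which run from 250 bases before to 50 bases after a transcript start. The windows covered 6 of the 9 genes with 13 windows. Sgk1 had 6 of these windows, Tsc22d3 had 3, and Klf9, Fkbp5, Nr3c2 and Hsd11b1 had 1 each. Zbtb16, Nr3c1 and Hsd11b2 had none and were not searched. The full inverted repeat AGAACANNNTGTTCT, which reads the same on both strands, was in 3 of all 32851 windows (0.00913%), and 1 of these was a window of Sgk1, at chr10:21993640-21993939 on the plus strand, where the repeat starts 189 bases before a transcript start. It is shown because Sgk1 was the member with this match, with the repeat in capitals.
Sgk1: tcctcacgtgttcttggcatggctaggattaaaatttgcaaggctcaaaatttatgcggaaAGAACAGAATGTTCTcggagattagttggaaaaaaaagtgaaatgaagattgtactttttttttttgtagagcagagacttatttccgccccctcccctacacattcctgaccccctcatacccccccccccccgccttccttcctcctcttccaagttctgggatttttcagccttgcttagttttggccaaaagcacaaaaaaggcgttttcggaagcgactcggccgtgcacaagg
The looser core GNACANNNTGTNC, which lies inside the full repeat, was in 0.475% of all windows and in 5 of 49 windows of a list of other glucocorticoid target genes, those of Txnip, Map3k6, Mt1 and Fam107a. Fam107a entered this count with overlapping windows that hold the same site, so that site was counted more than once. The match with 20 bases on either side is shown for Txnip and Mt1, whose values return below, with the core in capitals; they were singled out after their values were seen. The Txnip stretch lies at chr3:96557765-96557817 and the Mt1 stretch at chr8:94178975-94179027, both on the plus strand.
Txnip: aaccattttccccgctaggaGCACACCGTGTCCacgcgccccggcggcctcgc
Mt1: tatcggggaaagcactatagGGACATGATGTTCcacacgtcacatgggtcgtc
A match describes these letters only, and no match says nothing of sites outside the window.

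The wild-type libraries differed more among themselves than the ko libraries did. The median SD of a tested gene was 0.258 among the wild-type libraries and 0.096 among the ko libraries, and the wild-type SD was the larger in 90.9% of tested genes. Arg1, the deleted gene, had rlog values of 5.59, 5.57, 5.02 and 5.58 in wild type 1 to 4 and 5.06, 4.87, 5.15 and 5.19 in Arg1 ko 1 to 4. The third wild-type library lay inside the ko range and is called the library labelled wild type 3. Arg1 ranked low among the tested genes (percentile 16.8, mean rlog 5.25), and its deletion is cell-specific. A value from whole tissue therefore does not settle a genotype, and the label was not tested. All 7 B cell markers were highest in that library. Their median, each gene less its own mean, was 1.33 there and between -0.30 and -0.14 in the ko libraries. The Arg1 difference of -0.37 did not pass (limma adjusted p = 0.522; exact two-sided permutation p = 0.114, where 0.0286 is the smallest that 70 assignments allow), and it was -0.51 without that library (limma adjusted p = 0.0418). That library was singled out by its Arg1 value, so its removal enlarges the Arg1 difference by construction. The RNA is labelled colon while the protocol describes epithelial aggregates. The epithelial marker Epcam ranged from 15.13 to 15.75 over the 8 libraries and the smooth muscle marker Myh11 from 13.83 to 15.41, so muscle RNA was present beside that of epithelium. In such mixed tissue, fewer cells of a type and less RNA per cell cannot be told apart.

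The 5 target genes were most variable in wild type, and each had its highest value in wild type 4, the highest library for 24.7% of all tested genes. Klf9 (ENSMUSG00000033863, chromosome 19, 23141226 to 23168134, GRCm38), a Krüppel-like transcription factor that restrains proliferation, had rlog values of 10.01, 10.70, 11.19 and 12.36 in wild type 1 to 4. In Arg1 ko 1 to 4 its values were 10.97, 10.93, 10.82 and 10.94. The wild-type libraries thus spanned 2.35 on the log2 scale, a 5.09-fold range, while the ko libraries spanned 0.14 and all lay inside the wild-type range.

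Zbtb16 (ENSMUSG00000066687, chromosome 9, 48654297 to 48836222), which encodes the zinc finger repressor PLZF, behaved likewise. Its rlog values were 7.51, 8.89, 9.44 and 10.25 in wild type 1 to 4, a 6.68-fold range. They were 9.14, 8.99, 8.59 and 8.65 in Arg1 ko 1 to 4, again all inside the wild-type range. For both Klf9 and Zbtb16 wild type 1 was the lowest of the 8 libraries, as it was for 28.8% of all tested genes, and wild type 4 the highest.

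Sgk1 (ENSMUSG00000019970, chromosome 10, 21882184 to 21999903), a kinase that keeps sodium channels at the cell surface, had rlog values of 13.38, 14.25, 13.53 and 14.85 in wild type 1 to 4. In Arg1 ko 1 to 4 its values were 13.58, 13.43, 13.51 and 13.62. Wild type 2 and 4 were the high libraries, while wild type 1 and the library labelled wild type 3 lay with the ko libraries or just below them.

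Tsc22d3 (ENSMUSG00000031431, chromosome X, 140539528 to 140600659) encodes GILZ, a protein that dampens NF-kB and AP-1 in immune cells. Its rlog values were 11.29, 11.78, 11.05 and 12.04 in wild type 1 to 4 and 11.18, 11.16, 10.99 and 10.88 in Arg1 ko 1 to 4. The library labelled wild type 3 was inside the ko range, and the other wild-type libraries were above it. Fkbp5 (ENSMUSG00000024222, chromosome 17, 28399094 to 28517527), a cochaperone that lowers the receptor's affinity for hormone and so closes a feedback loop, had 13.78, 14.50, 13.88 and 14.64 in wild type 1 to 4 and 13.83, 14.00, 13.86 and 13.91 in Arg1 ko 1 to 4. As for Sgk1, wild type 2 and 4 stood above the 6 other libraries, which lay between 13.78 and 14.00.

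**Figure D1:**
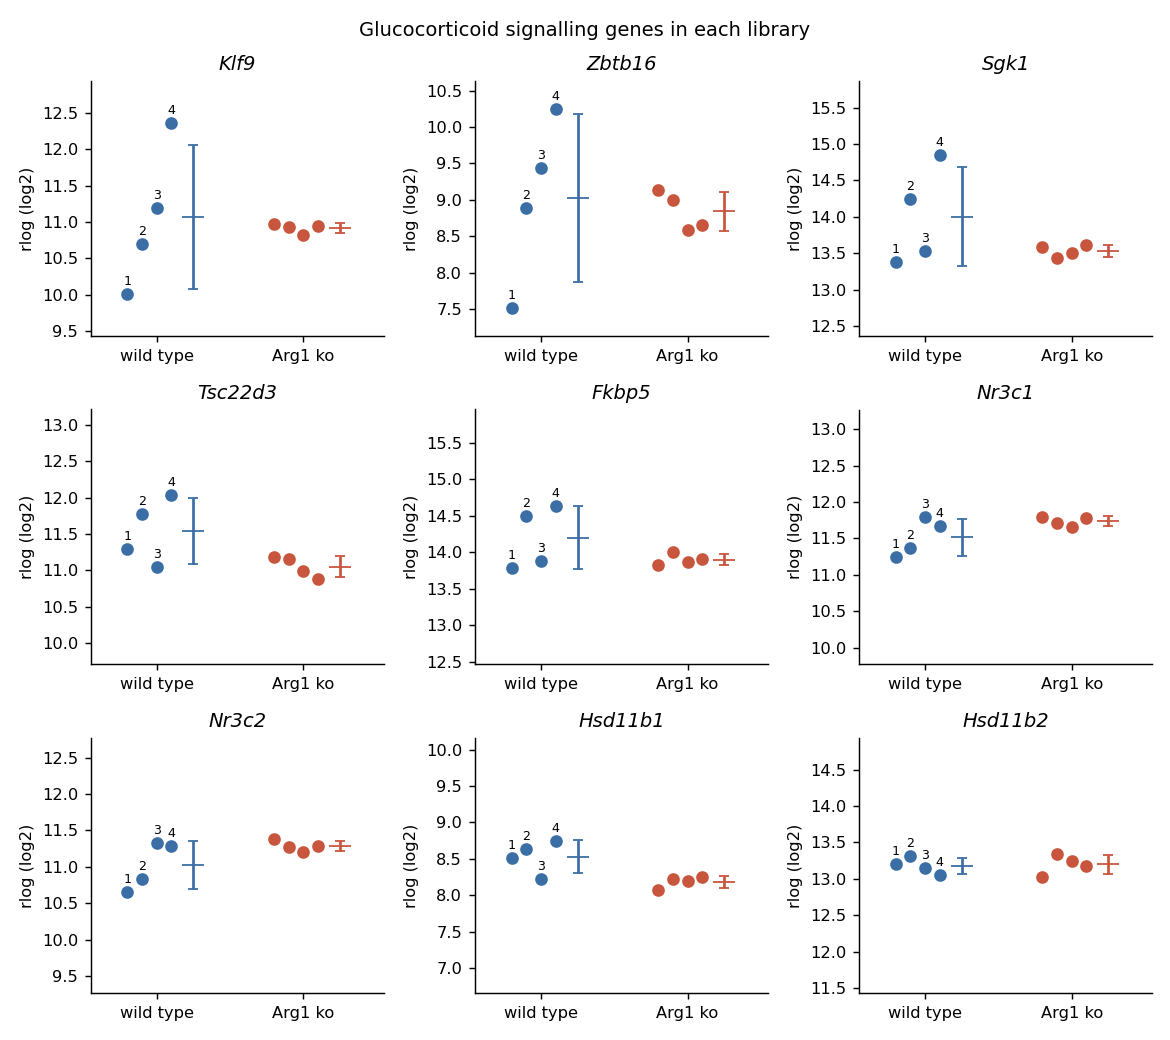
Each panel plots the rlog value (log2 scale, axis spanning 3.5 units in every panel) of a gene in the 4 wild-type (blue, numbered) and 4 Arg1 ko (red) libraries, with the group mean ± SD beside the points. The wild-type points of Klf9 and Zbtb16 are the most widely spread, and the ko points stay together.

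Over the libraries the targets were read as 2 patterns, which are not sharply apart. Likeness was measured as the root mean square difference between the values of 2 genes, each centred on its own mean over the 8 libraries. By that measure, of the 16379 other tested genes, Klf9 was the third nearest to Zbtb16 and Zbtb16 the 38th nearest to Klf9. Fkbp5 was the 21st and Tsc22d3 the 34th nearest to Sgk1, and Fkbp5 was the 51st nearest to Tsc22d3. From the other side, Sgk1 was the 683rd nearest to Fkbp5 and the 293rd to Tsc22d3, and Tsc22d3 the 137th to Fkbp5. The enzyme gene Hsd11b1 was nearer than Sgk1 to both, the 268th nearest to Fkbp5 and the 237th to Tsc22d3. Across the patterns the ranks also depended on the side taken. Seen from Fkbp5, 83.1% of genes were nearer than Klf9, and seen from Tsc22d3, 93.3% were nearer than Zbtb16. Seen from Klf9, only 4.7% were nearer than Sgk1 and 12.9% nearer than Fkbp5, and seen from Zbtb16 these shares were 5.8% and 13.0%. These ranks describe 8 libraries that share their extremes and carry no test.

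The genes outside the set that came nearest each target were picked by this measure, so they repeat its shape by construction. Nearest to Klf9 were Rnf125 (root mean square difference 0.089), a ubiquitin ligase, Dusp4 (0.119), a MAP kinase phosphatase, and Scube2 (0.139), a secreted protein that aids Hedgehog release. Nearest to Zbtb16 were Scube2 (0.168), Rnf125 (0.251) and the clock gene Per2 (0.271). Rnf125 shows the shape well, with rlog values of 6.31, 7.09, 7.56 and 8.65 in wild type 1 to 4 and between 7.19 and 7.38 in the ko libraries.

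Nearest to Sgk1 were Slc10a6 (0.143), a transporter of sulphated steroids, Txnip (0.143), which binds thioredoxin and limits glucose uptake, and Ager (0.145), the receptor for glycated proteins. Nearest to Tsc22d3 were Art3 (0.079), Map1lc3b (0.097), which encodes the autophagosome protein LC3B, and Arrdc4 (0.098), an arrestin relative. Nearest to Fkbp5 were Slc39a8 (0.069), a zinc importer, Lbp (0.086), which binds bacterial lipopolysaccharide, and Frg2f1 (0.093). Slc10a6 had rlog values of 5.96, 7.07, 6.46 and 7.41 in wild type 1 to 4 and between 6.27 and 6.49 in the ko libraries, high in wild type 2 and 4 as Sgk1 was.

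**Figure D2:**
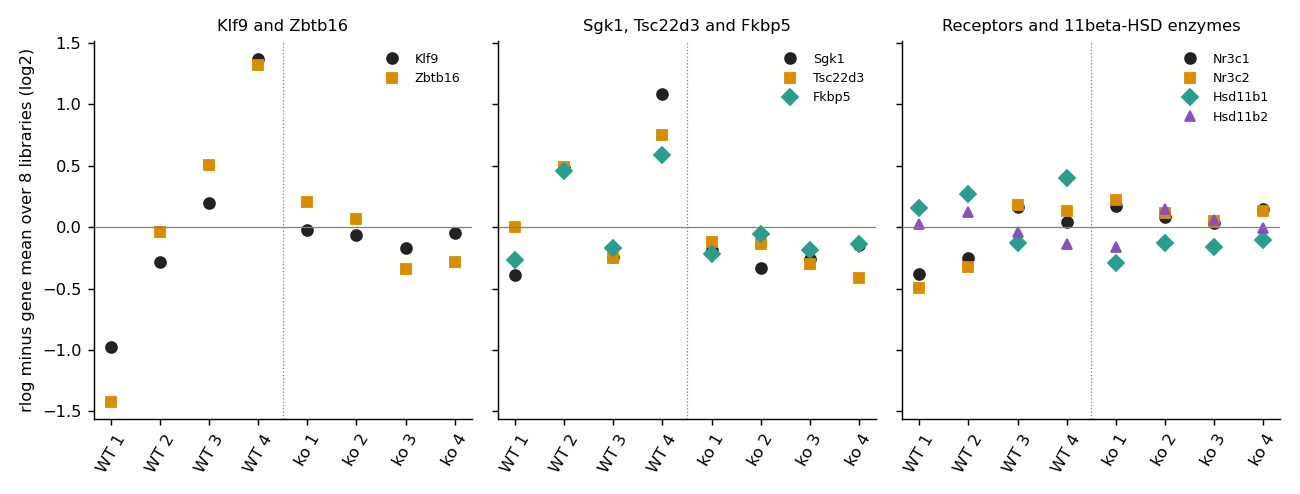
Points give each gene's rlog value minus its own mean over the 8 libraries (log2 scale) for wild type (WT) 1 to 4 and Arg1 ko 1 to 4, in 3 panels. Klf9 and Zbtb16 are lowest in WT 1 and highest in WT 4, Sgk1, Tsc22d3 and Fkbp5 are high in WT 2 and WT 4, and the receptor genes are low in WT 1 and WT 2.

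The receptor genes took a different course, low in wild type 1 and 2 and even in the rest. Nr3c1 (ENSMUSG00000024431, chromosome 18, 39410545 to 39519421), the glucocorticoid receptor, had rlog values of 11.24, 11.37, 11.79 and 11.67 in wild type 1 to 4 and 11.80, 11.71, 11.66 and 11.78 in Arg1 ko 1 to 4. Nr3c2 (ENSMUSG00000031618, chromosome 8, 76899442 to 77245012), the mineralocorticoid receptor, had 10.66, 10.83, 11.33 and 11.29 in wild type 1 to 4 and 11.38, 11.27, 11.21 and 11.29 in Arg1 ko 1 to 4. Wild type 4, the library with the highest targets, thus held receptor levels inside the ko range. Long transcripts as a class were low in the same libraries: the median centred value of the 3275 tested genes with the most exon bases (7237 or more) came to -0.31 for wild type 1 and -0.18 for wild type 2, and lay between 0.01 and 0.14 in the other 6 libraries. The merged exons of Nr3c1 cover 7684 bases and those of Nr3c2 cover 6474, so Nr3c2 falls outside that class. With the length correction described below the receptor differences shrank but kept their sign. The part of transcript length in the receptor values was not tested.

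The enzymes set how much hormone the receptors see. Hsd11b1 (ENSMUSG00000016194, chromosome 1, 193221634 to 193264075), which regenerates active corticosterone from its inert form, had rlog values of 8.51, 8.63, 8.23 and 8.75 in wild type 1 to 4 and 8.07, 8.23, 8.20 and 8.25 in Arg1 ko 1 to 4. The library labelled wild type 3 lay among the ko values and the other wild-type libraries above them all. Hsd11b2 (ENSMUSG00000031891, chromosome 8, 105518755 to 105523988), which inactivates the hormone and so keeps the mineralocorticoid receptor for aldosterone, had 13.21, 13.31, 13.15 and 13.05 in wild type 1 to 4 and 13.03, 13.34, 13.25 and 13.18 in Arg1 ko 1 to 4. Its groups overlapped fully, and it was the only member whose SD was larger in Arg1 ko (0.13) than in wild type (0.11).

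Levels were compared between genes per length, as the rlog value minus log2 of the merged exon length in kilobases. On that scale the order of the means over 8 libraries was Hsd11b2 (12.31), Sgk1 (11.47), Fkbp5 (10.81), Tsc22d3 (9.18), Klf9 (8.72), Nr3c1 (8.69), Nr3c2 (8.46), Zbtb16 (6.53) and Hsd11b1 (6.27). Of the neighbours in this order, only Fkbp5 and Tsc22d3, and Nr3c2 and Zbtb16, had ranges that did not overlap in wild type. There Zbtb16 ran from 5.11 to 7.85 and Hsd11b1 from 6.14 to 6.67, and Klf9 (7.74 to 10.09) covered the whole range of Nr3c1 (8.30 to 8.85). In the ko libraries no neighbours in this order overlapped, but the order itself changed. Klf9 (8.55 to 8.70) then lay below Nr3c1 (8.72 to 8.86) and level with Nr3c2 (8.51 to 8.68), and Nr3c1 overlapped Tsc22d3 (8.76 to 9.06). The RNA of the inactivating enzyme exceeded that of the activating one in every library, by 5.50 to 6.31 on the per-length log2 scale. That is 45.3-fold to 79.5-fold. The length used is that of the merged exons, not of the transcripts made, and enzyme protein was not measured. The gap between these RNAs was 5.86 ± 0.26 for the wild-type and 6.22 ± 0.08 for the ko libraries (SD, n = 4 each), smallest in wild type 4. Nr3c1 exceeded Nr3c2 by 0.13 to 0.34 per length in the 8 libraries.

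Between genotypes, all 5 targets and Hsd11b1 had lower means in Arg1 ko, and both receptors had higher ones, but in none of the 9 did the groups separate and none was called. Over all genes limma called 0 of 16380 at an adjusted p of 0.05 (0% in either direction, 1490 at an unadjusted p of 0.05, or 9.1%), and the groups did not overlap in 386 genes with higher values in Arg1 ko (2.36% of all tested) and 274 with lower values (1.67%), a split that turned to 284 and 338 with library medians aligned. The 9 genes had limma adjusted p-values from 0.522 to 0.949, and 2 of them, Tsc22d3 and Hsd11b1, had an unadjusted p under 0.05. The difference was below 0 in 48.8% of all tested genes. Because the genes were listed with this contrast known, nothing is read from these counts.

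Tsc22d3 had the largest mean difference of the members, -0.49 (SE 0.20), from 11.54 ± 0.45 (SD, n = 4) in wild type to 11.05 ± 0.14 (SD, n = 4) in Arg1 ko, a ratio of 0.712 on a linear scale. Sgk1 differed by -0.46 (SE 0.28), from 14.00 ± 0.68 (SD, n = 4) to 13.54 ± 0.08 (SD, n = 4). Hsd11b1 differed by -0.34 (SE 0.13), from 8.53 ± 0.22 (SD, n = 4) to 8.19 ± 0.08 (SD, n = 4). For Sgk1 the difference was smaller than the spread within wild type, and it shrank to -0.18 without wild type 4.

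Fkbp5 differed by -0.30 (SE 0.19), which became -0.15 without wild type 4, -0.12 after quantile normalisation and -0.42 with a correction for transcript length, an alternative chosen after seeing the data. Klf9 differed by -0.15 (SE 0.39) and Zbtb16 by -0.18 (SE 0.46). Their direction rested on single libraries: the differences were 0.28 and 0.23 when wild type 4 was left out, and -0.50 and -0.68 when wild type 1 was. Zbtb16 came to -0.04 without the library labelled wild type 3.

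Nr3c1 was 0.22 higher in Arg1 ko (SE 0.13) and Nr3c2 0.26 higher (SE 0.15). Without wild type 1 these became 0.13 and 0.14, and with the length correction 0.13 and 0.19. Hsd11b2 differed by 0.02 (SE 0.10), a value whose sign turned with the scaling, from -0.01 with library medians aligned to 0.14 with quantile normalisation. Leaving out the library labelled wild type 3 moved Hsd11b1 to -0.44 with a limma adjusted p of 0.0444, in a fit that called 2.85% of all genes higher and 3.28% lower in Arg1 ko. The same fit gave Tsc22d3 -0.65 with a limma adjusted p of 0.0567. That library is the one nearest to the ko values for both genes, so its removal enlarges both differences by construction.

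**Figure D3:**
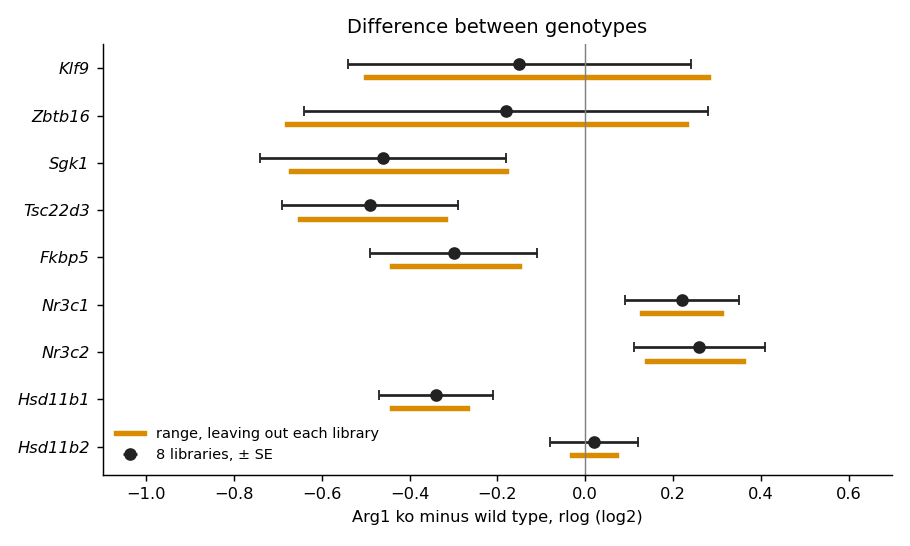
Black points show each gene's Arg1 ko mean less its wild-type mean (rlog, log2 scale) with the limma standard error, and orange bars are the range when each of the 8 libraries is left out in turn. The bars of Klf9, Zbtb16 and Hsd11b2 cross 0, and those of the 6 other genes do not.

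A list of 44 other genes known to be induced by glucocorticoids in some cell type, of which 43 were tested, was described in the same way. It was drawn up with earlier results of these data known, so its counts are a description and support nothing by themselves. Wild type 4 was the highest library for 24 of the 43 (55.8%), against 24.7% of all tested genes and 5 of the 5 targets above. Wild type 2 was the highest for a further 12, against 9.91% of all genes. The median centred value of the list was -0.16, 0.21, -0.04 and 0.46 in wild type 1 to 4 and between -0.17 and -0.10 in the ko libraries. In all 43 genes the wild-type SD was the larger.

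Some of these genes stood further above their own mean in wild type 4 than any of the 9 genes did. Per1, a clock gene with a glucocorticoid response element, had rlog values of 9.54, 10.12, 10.30 and 11.76 in wild type 1 to 4 and between 9.84 and 10.30 in the ko libraries. Sesn1, a stress-induced inhibitor of mTORC1, had 10.13, 10.76, 10.21 and 12.04 in wild type 1 to 4 and between 9.91 and 10.18 in Arg1 ko. Klf15, a regulator of amino acid breakdown, had 7.60, 8.38, 8.02 and 9.59 in wild type and between 7.71 and 7.95 in Arg1 ko. These 3 genes were named after their values were seen, and in each the other 7 libraries lay far below wild type 4.

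Of the 43 genes 33 had lower and 10 higher means in Arg1 ko, with a median difference of -0.23 beside 0.0064 over all tested genes. None was called by limma with 8 libraries; 14 were lower and 2 higher at an unadjusted p under 0.05, shares to be set beside 4.37% and 4.73% of all genes. The groups did not overlap in 4 lower genes (Cebpd, Nfkbia, Anxa1 and Txnip) and 1 higher gene (Tns4), beside 1.67% and 2.36% of all tested genes. The median stayed negative in every alternative, between -0.40 (wild type 1 left out) and -0.15 (wild type 4 left out). Because the list was chosen with earlier results of these data known, nothing is read from these counts either.

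The smallest p-values in the list were those of Cebpd, Nfkbia, Lcn2 and Gadd45b. Cebpd, which encodes the acute-phase regulator C/EBP delta, differed by -0.53, with 10.26, 10.59, 10.16 and 10.60 in wild type 1 to 4 and 9.80 to 9.92 in the ko libraries. Nfkbia, the inhibitor that holds NF-kB in the cytoplasm, differed by -0.53, with 11.83, 11.80, 11.80 and 12.40 in wild type 1 to 4 and 11.36, 11.32, 11.59 and 11.44 in Arg1 ko 1 to 4; the difference was -0.38 without wild type 4. Lcn2, which binds bacterial siderophores, differed by -0.85 and Gadd45b, a stress-response gene, by -0.56. NF-kB or inflammatory cytokines are known to induce these 4 genes too. Of 8 neutrophil markers 6 were tested and 5 of these had lower means in Arg1 ko, with a summed level of 8.67 to 10.67 in wild type and 8.68 to 9.15 in Arg1 ko. The marker Ly6g had rlog values of 9.18, 9.93, 7.21 and 9.32 in wild type 1 to 4. In Arg1 ko 1 to 4 its values were 6.94, 7.55, 8.25 and 7.50. In wild type 4 it lay far above S100a8 (6.87) and S100a9 (7.09), so it weighs most in the sum there. Csf3r was 0.28 higher in Arg1 ko, while Ly6g (-1.35), S100a9 (-0.69), S100a8 (-0.60), Ngp (-0.52) and Retnlg (-0.21) were lower. Of these only Ngp, with values of 3.13 to 4.14 near the filter, had groups that did not overlap, beside 1.67% of all tested genes. Cxcr2 and Mpo fell below the filter. The part of neutrophils in the differences of the 4 genes above was not tested. Of 10 immediate early genes, which handling and stress induce, 8 had lower means in Arg1 ko (median -0.38). The groups did not overlap in 4 of these (Junb, Ier2, Ier3 and Nr4a1), beside 1.67% of all tested genes, and overlapped in the others. An unadjusted limma p under 0.05 was found for 5, all lower, beside 4.37% of all genes, and none was called. The summed level of 8 fibroblast markers was 14.66 to 14.99 in wild type and 15.03 to 15.16 in Arg1 ko. Among them Col1a1 (0.83), Col1a2 (0.57), Col3a1 (0.70) and Postn (0.30) had groups that did not overlap, beside 2.36% of all tested genes. The groups of Dcn (-0.11), Lum (0.31), Pdgfra (0.06) and Pdgfrb (0.10) overlapped. The part of both lists was not tested either.

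The most highly expressed genes of the list were Txnip and Klf4. Txnip, whose core match is printed above, had 15.06, 15.51, 15.04 and 16.35 in wild type 1 to 4 and 15.00, 14.79, 14.82 and 14.83 in Arg1 ko 1 to 4. Its difference of -0.63 became -0.34 without wild type 4. Klf4, a factor of differentiated colon epithelium, differed by 0.05. Without the library labelled wild type 3 limma called 7 of the 43 genes, all lower in Arg1 ko, beside 3.28% of all tested genes called lower and 2.85% called higher. They were Cebpd, Lcn2, Gadd45b, Gadd45g, Il1r2 and the metallothioneins Mt1 and Mt2. Mt1, a zinc-binding protein gene with a core match, had 12.63, 12.80, 11.59 and 13.04 in wild type 1 to 4 and 11.74, 12.03, 11.73 and 11.68 in Arg1 ko 1 to 4, so the library left out was the lowest of all 8.

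**Figure D4:**
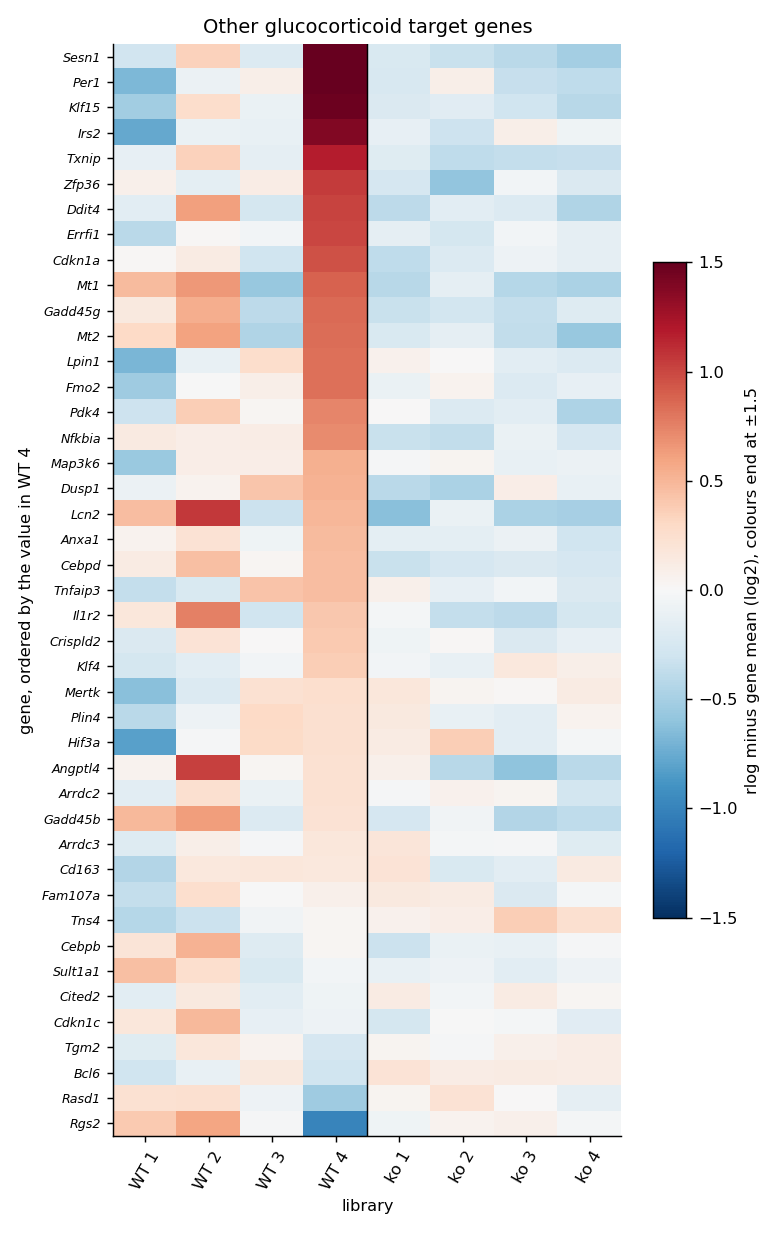
Rows are the 43 tested genes of the list of other glucocorticoid targets, columns the 8 libraries, and colours the rlog value minus the gene's mean (log2 scale, colours ending at 1.5 either side of 0). The WT 4 column is the darkest red, from Sesn1 at the top down to genes such as Rgs2 that are lowest there, and the 4 ko columns are pale.

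Clock genes stood out in the same library. Of 14 clock genes 11 were highest in wild type 4, and their median centred value was -0.29, -0.22, 0.00 and 0.82 in wild type 1 to 4 and between -0.07 and -0.02 in the ko libraries. Ciart, a clock repressor, had an rlog of 8.88 in wild type 4 and between 5.74 and 6.33 in the other 7 libraries. Nr1d1, which encodes REV-ERB alpha, had 11.83 there and 10.43 to 10.73 elsewhere. Of the activators, Arntl (9.38) and Npas2 (9.04) were lowest in wild type 4, though Arntl was nearly as low in wild type 1 (9.41). Clock (10.76) was not lowest in wild type 4, with 10.24 in wild type 1 and 10.34 in wild type 2. These 5 clock genes were named after their values were seen. Klf9, Per1 and Per2 are known to follow both the clock and the hormone, and the part of the clock in the target values was not tested.

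Markers of other cells in wild type 4 went in several directions. The summed level of 8 T cell markers was 9.81 on the log2 scale in wild type 4 and 10.29 to 10.68 in the 7 other libraries. That of 8 macrophage markers was 13.77 against 13.90 to 14.28, and that of 7 B cell markers 7.35 against 7.57 to 8.95. Smooth muscle markers (17.04 against 16.52 to 16.89) and endothelial markers (12.35 against 11.79 to 12.24) were highest there, while the 8 epithelial markers (17.84) lay within the range of the rest, 17.59 to 18.04. The part of cell makeup in the target values was not tested.

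The proteins that fold and hold the receptor showed no shared direction. Of 14 chaperone genes 8 had higher and 6 lower means in Arg1 ko, with a median difference of 0.03 (0.11 after quantile normalisation), and none was called or had an unadjusted p under 0.05. The smallest p-values were those of Bag1 (-0.27), a cochaperone that limits receptor activity, Stip1 (0.19) and St13 (0.12), which help load the receptor on Hsp90, and Stub1 (-0.25), a ubiquitin ligase. The most abundant were Hsp90ab1 (14.71 ± 0.12 in wild type and 14.72 ± 0.05 in Arg1 ko; SD, n = 4 each) and Hspa8 (14.35 ± 0.16 and 14.33 ± 0.04; SD, n = 4 each). Wild type 4 was the highest library for 2 of the 14.

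The coregulators were low in wild type 1 and 2, as the receptors were. All 15 had higher means in Arg1 ko, with a median of 0.19, yet none was called by limma or had an unadjusted p under 0.05. Wild type 1 was the lowest library for 9 of them and wild type 2 for 5, and the median was 0.08 with the length correction. Ncor1, a corepressor, had rlog values of 11.28, 11.57, 12.28 and 12.26 in wild type 1 to 4 and between 12.11 and 12.26 in the ko libraries, a difference of 0.34 that was 0.15 without wild type 1. Med14 (0.27), a Mediator subunit, Carm1 (0.19), an arginine methyltransferase, and Smarca4 (0.13), a chromatin remodeller, had the other small p-values. Of the 15 only Smarca4 had groups that did not overlap, higher in Arg1 ko, beside 2.36% of all tested genes.

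Of 23 genes of steroid synthesis, its regulation, breakdown and export, 14 passed the filter and 9 had a mean below 3, among them Cyp11a1, which makes the first steroid from cholesterol, with rlog values of 0.04 to 0.18. Cyp11b1, which makes corticosterone itself, was listed at 0 in all 8 libraries. Nr5a2, the factor that drives steroid synthesis in the intestine, lay between 10.65 and 11.04 in wild type and between 10.56 and 10.88 in Arg1 ko. These 3 genes were named after their values were seen.

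Among the 14 tested genes of that list 5 had higher and 9 lower means in Arg1 ko, with a median of -0.09 and none called. Hsd3b2 (0.30), a steroid dehydrogenase that has near-identical relatives, and Abcb1b (-0.35), an efflux pump that exports steroids, had groups that did not overlap and the smallest p-values. Over all tested genes the groups did not overlap in 2.36% (higher in Arg1 ko) and 1.67% (lower). Fdx1 (-0.34), an electron carrier to steroid-making enzymes, and Stard3 (-0.18), a cholesterol carrier, followed. Abcb1a, the main efflux pump of the gut wall, was the most abundant, with 13.96, 14.45, 14.62 and 15.17 in wild type 1 to 4 and 14.62 to 14.80 in Arg1 ko, and wild type 4 was the highest library for 8 of the 14 genes (57.1%). Hsd3b3 (-0.09) was the next most abundant. H6pd, which feeds NADPH to the Hsd11b1 enzyme, had 10.37, 10.67, 10.94 and 11.08 in wild type 1 to 4 and 10.62 to 10.80 in Arg1 ko; it was named after its values were seen.

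Sodium transport, the colonic output of mineralocorticoid signalling, had no shared direction between genotypes. Wild type 4 was the highest library for 11 of the 22 genes and wild type 1 the lowest for 12, and the median centred value was -0.20, 0.04, -0.02 and 0.17 in wild type 1 to 4. Of the 22 genes 13 had higher and 9 lower means in Arg1 ko, with a median of 0.03 that was -0.03 with the length correction, and none was called. The channel subunit gene Scnn1a, which glucocorticoids induce, had rlog values of 10.35, 10.85, 10.78 and 11.32 in wild type 1 to 4 and 10.72 to 10.85 in Arg1 ko, while the other channel subunit genes, Scnn1b (-0.10) and Scnn1g (0.11), were not highest in wild type 4; the 3 were named after their values were seen. The smallest p-values were those of Atp12a (0.35), a proton-potassium pump, Wnk1 (0.38), a kinase that controls ion transporters, Slc26a3 (0.51), a chloride-bicarbonate exchanger, and Prss8 (-0.21), a protease that activates the sodium channel. The groups did not overlap for Atp12a, higher in Arg1 ko, beside 2.36% of all tested genes. Wnk1 was called without the library labelled wild type 3 (0.54, limma adjusted p = 0.0363), in a fit that called 2.85% of all genes higher. That library held the highest Wnk1 value (11.97), so its removal enlarges the difference by construction. Atp1b1, a sodium pump subunit gene and among the most abundant of the list, differed by -0.06.

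**Figure D5:**
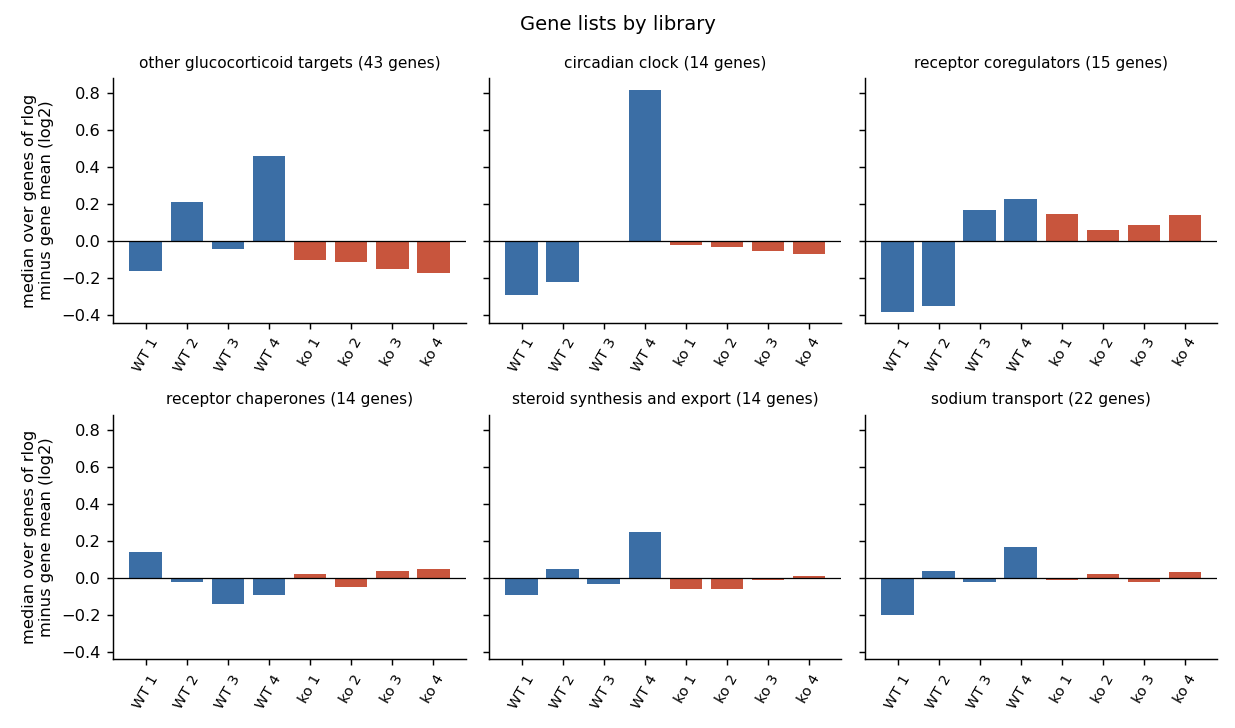
Bars give, for each library, the median over the genes of a list of the rlog value minus the gene's mean (log2 scale), in blue for wild type (WT) 1 to 4 and red for Arg1 ko 1 to 4. The clock bar (0.82) and the bar of the other targets (0.46) are tallest in WT 4, the coregulator bars are lowest in WT 1 and WT 2, and the chaperone bars stay between -0.14 and 0.14.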

How the data were processed

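RNA from the colon of 8 mice was sequenced from 1000 ng of total RNA with a stranded mRNA kit, per the labels' protocols. The authors deposited regularised log2 (rlog) values per gene and library, a transform of read counts that corrects for depth and shrinks noisy values, so that differences of genes with few reads are understated. The submitters' processing notes list DESeq2 1.16.1, featureCounts, Subread 1.5.3, STAR 2.5.2b and BWA 0.7.14-r1136, and the build GRCm38, without their order; annotation release and strand setting: not given in the sources used here. Counts cannot be recovered, so depth is unknown and no counting interval is given.

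Symbols, coordinates and merged exon lengths came from GENCODE vM21 (GRCm38), where 53274 of 53465 IDs had a symbol. Genes with a mean of at least 3 were fitted with limma 3.58.1 in R 4.3.3 (moderated, variance trend, no covariate, two-sided, Benjamini-Hochberg over all 16380 genes), and the fit was tested on simulated data. Libraries are separate samples by their labels and were numbered in order of deposit; p-values measure the spread between them. The 9 genes and all lists were chosen with earlier results of these data known. Named are the 9 genes and Arg1; of each pathway list the 4 genes of smallest p and the 2 of highest mean; and the 3 nearest neighbours of each target, predicted genes and pseudogenes left out; any other gene, cell type markers included, was chosen after its values were seen. A gene that this rule names is not reported here. Alternatives were other filters, scalings and moderation, leaving out each library and, chosen after seeing the data, a natural spline on exon length with 5 degrees of freedom.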

Additional observations from a re-analysis of the deposited data

Results flagged for a closer look

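Of 38 named genes examined within each genotype, 76 groups of 4 libraries in all, 2 held a library set apart from the other 3 by Dixon's test; chance gives about 1 in 20 groups. The Arg1 value of 5.02 in the library labelled wild type 3 lay below the next wild-type value of 5.57. The Nfkbia value of 12.40 in wild type 4 lay above the next wild-type value of 11.83, in the library where the 5 glucocorticoid targets were also highest.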

How the results depend on the processing

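No gene was called with any other filter, scaling, moderation or threshold, with the length correction, or without any library other than the one labelled wild type 3; leaving out each library gave 0 to 1005 called genes, the highest without the library labelled wild type 3. Counts of genes whose groups do not overlap ran from 483 to 2045 (higher in Arg1 ko) and from 338 to 2150 (lower) when a library was left out, by construction larger with fewer libraries, and without a filter the lower count was 1266. The Arg1 difference was -0.29 with the length correction and ran from -0.51 to -0.31 when a library was left out. It passed the threshold without the library labelled wild type 3, whose Arg1 value was the lowest of wild type, so that this removal enlarges it by construction. Hsd11b2 moved to 0.14 with quantile normalisation, more than its spread within groups; the cause was not tested. The other 8 members and the 5 pathway list medians moved by less than that spread in every alternative run, although for Klf9 and Zbtb16 that spread is wide enough to hold a change of sign. No paired analysis was possible because the labels give no replicate numbers shared between the genotypes. Unknown depth and the shrinkage of rlog limit what can be said of the weakly expressed steroid synthesis genes.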

Other observations

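Of the 43 tested other glucocorticoid targets, 24 had their highest value in wild type 4 and 4 had their lowest there. Rgs2, a regulator of G protein signalling, had its lowest rlog value in wild type 4 (10.42, against 11.36 to 12.01 in the other 7 libraries), and so had Rasd1, a small GTPase induced by dexamethasone (8.24, against 8.64 to 9.01). Angptl4, an inhibitor of lipoprotein lipase, was among the 12 genes highest in wild type 2 (10.07, against 9.28 in wild type 4). It had 8.44 to 9.11 in the ko libraries. These genes were singled out after their values were seen.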
